A study of Mus musculus with 6 samples.

Results

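MYC, ATF4 and the genes that supply amino acids for protein synthesis were followed in mouse Th2 cells as a group of 40 named genes. The list holds Myc, Mycn, Max and Mxd1 of the MAX network with the polyamine gene Odc1, 6 amino acid transporter genes, Atf4 with 5 stress response genes, 9 genes of amino acid and one-carbon synthesis and 14 cytosolic tRNA synthetase genes. The genes were matched by name, under the current symbol or its older alias, and the rule uses no measured value, although the list was drawn up with earlier results of these data known. On the arrays 1 probe set stood for each gene, the one with the highest mean log2 signal over the 6 arrays among those naming that gene alone. In this way 39 of the 40 genes were measured, out of 18194 genes in all, and Pycr1, an enzyme of proline synthesis, had no probe set that named it alone.

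MYC pairs with MAX to bind E-box sequences and raises the expression of genes for growth, whereas MXD proteins compete for MAX and repress. ATF4 is made when amino acids are short or when stress kinases phosphorylate the initiation factor eIF2 alpha, and it binds amino acid response elements at genes for the import and synthesis of amino acids and for the charging of tRNAs. T cells are known to induce MYC when their receptor is engaged and to take up large neutral amino acids and glutamine as they grow toward division.

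The RNA came from splenic CD4 T cells of C57BL/6 mice, activated with anti-TCR and anti-CD28 mAbs. Th2-1st cells were effector Th2 cells grown for 5 days in 25 U/ml IL-2 plus 100 U/ml IL-4. Th2-4th cells had gone on from there through a cycle, repeated 3 times, of 2 days without added cytokines and 5 days with anti-TCR mAb, IL-2 and anti-IL-4 mAb, so the cultures differ in time, in rounds of stimulation and in the blocking of IL-4. All cells had been nucleofected with an siRNA. Each culture gave 3 arrays. On 1 of them were unstimulated cells with control siRNA, on 1 cells with control siRNA after 4 h on immobilized anti-TCR mAb, and on 1 cells with GATA3 siRNA after the same 4 h, which began 24 h after transfection.

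The values are linear probe set signals, with array medians from 61.8 to 74.2. Each condition had a single array. Differences therefore lack a replicate check, and p-values were not computed. A ratio of 2 arrays over 2 or under 0.5 was called higher or lower, and the spread given beside a log2 ratio is a robust SD of the ratio among genes of like signal in that pair, which includes real changes. In bulk RNA, fewer cells of a type and less RNA per cell cannot be told apart. Gata3, the target of the siRNA, had a log2 ratio of GATA3 to control siRNA of -1.44 (spread 0.16) in Th2-1st and -1.70 (spread 0.22) in Th2-4th cells. Of 9 measured markers of CD4 T and Th2 cells, 8 were above the array median on all 6 arrays. The summed signal of 5 markers of CD8 T and NK cells was 597 without stimulation and 1083 with anti-TCR in Th2-1st control cells, and 616 and 2654 in Th2-4th control cells. The summed signal of 5 markers of mast cells and basophils was 634 and 325 in Th2-1st control cells, and 824 and 1230.2 in Th2-4th control cells. Over the 6 arrays, the summed signal of 4 markers of B cells ran from 108 to 199, and that of 6 myeloid markers from 326 to 560. No marker was at 0, while Ncr1, Kit, Fcer1a, Ms4a2, Cd79a, Pax5, Lyz2 and Itgam were above the array median on no array. The part of these markers in the ratios below was not tested. Signals of different probe sets share no scale, so levels were compared only between arrays for the same gene. Of the 39 genes, 36 were above the array median on all 6 arrays, and the others were Mycn on 4, Chac1 on 5 and Slc7a11 on 1.

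Both recognition sequences were looked for in the promoters of the group, taken from RefSeq (build GRCm38.p6) as 250 bases before to 50 bases after the start of transcription. A promoter was given for 31 of the 40 genes, and Myc, Slc7a5, Slc1a5, Cars1, Hars1, Lars1, Nars1, Vars1 and Wars1 had no entry. The core of the amino acid response element, TGATGNAAN on either strand, was found in 10 of the 31 genes (32.3%), against 4.50% of 27025 genes in the whole table. The 10 genes were Asns, Chac1, Slc7a11, Trib3, Pycr1, Aars1, Gars1, Iars1, Tars1 and Yars1. The E-box CACGTG, which reads the same on both strands, was found in Max, Aldh18a1, Aars1, Iars1 and Tars1, which is 16.1% of the 31 genes, against 8.09% of all genes. The list holds MYC and ATF4 pathway genes by its rule, so neither share is an independent observation, and a match is not evidence of binding. Aars1, Iars1 and Tars1 are counted in both shares. The stretches from 220 bases before to 30 bases after the start are printed for 6 genes, chosen to show where the element lies in a synthesis gene (Asns), a stress gene (Chac1), a transporter gene (Slc7a11) and 3 synthetase genes, with both motifs in capitals. They lie at chr6:7693180-7693429 (minus strand), chr2:119351022-119351271 (plus), chr3:50443584-50443833 (minus), chr8:111033622-111033871 (plus), chr13:49681910-49682159 (plus) and chr15:11399629-11399878 (minus) and are written 5′ to 3′ along the gene.
Asns promoter: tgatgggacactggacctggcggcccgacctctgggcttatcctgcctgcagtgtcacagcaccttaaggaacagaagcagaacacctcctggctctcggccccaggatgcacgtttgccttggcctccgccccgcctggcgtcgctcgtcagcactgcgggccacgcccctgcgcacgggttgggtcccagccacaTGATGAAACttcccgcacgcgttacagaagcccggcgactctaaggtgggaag
Chac1 promoter: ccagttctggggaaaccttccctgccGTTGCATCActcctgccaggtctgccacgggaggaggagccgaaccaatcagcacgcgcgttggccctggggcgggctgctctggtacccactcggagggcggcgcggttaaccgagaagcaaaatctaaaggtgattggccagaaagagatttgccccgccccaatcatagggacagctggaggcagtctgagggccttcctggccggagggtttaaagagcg
Slc7a11 promoter: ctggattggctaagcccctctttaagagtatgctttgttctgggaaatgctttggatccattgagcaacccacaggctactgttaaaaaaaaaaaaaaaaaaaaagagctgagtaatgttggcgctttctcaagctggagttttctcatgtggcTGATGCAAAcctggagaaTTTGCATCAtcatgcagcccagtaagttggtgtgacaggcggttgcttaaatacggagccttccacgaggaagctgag
Aars1 promoter: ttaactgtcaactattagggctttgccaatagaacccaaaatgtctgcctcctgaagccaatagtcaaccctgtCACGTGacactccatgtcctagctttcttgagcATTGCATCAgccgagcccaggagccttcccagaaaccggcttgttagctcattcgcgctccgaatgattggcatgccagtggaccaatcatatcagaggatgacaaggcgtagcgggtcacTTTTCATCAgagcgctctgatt
Iars1 promoter: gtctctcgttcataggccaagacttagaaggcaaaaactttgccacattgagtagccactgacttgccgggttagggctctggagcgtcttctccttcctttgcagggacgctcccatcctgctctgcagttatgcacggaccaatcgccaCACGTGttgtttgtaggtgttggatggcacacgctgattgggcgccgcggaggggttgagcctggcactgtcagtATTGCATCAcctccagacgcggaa
Tars1 promoter: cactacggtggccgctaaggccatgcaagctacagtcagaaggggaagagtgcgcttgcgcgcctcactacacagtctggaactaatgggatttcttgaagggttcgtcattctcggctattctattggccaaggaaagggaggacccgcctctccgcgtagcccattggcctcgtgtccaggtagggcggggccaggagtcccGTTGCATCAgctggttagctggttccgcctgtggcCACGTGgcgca
In Asns the element began 23 bases before the start, in Tars1 16 and in Chac1 194. Slc7a11 held the element in both orientations, 66 and 48 bases before the start. Aars1 held it 113 bases before and again 8 bases after the start, with an E-box 146 bases before. Iars1 and Tars1 held an E-box as well, 69 bases before and 19 bases after the start.

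After 4 h of anti-TCR stimulation, 14 of the 39 genes were over 2-fold higher and 1 was lower than 0.5-fold in Th2-1st cells, where 17.5% of all genes were higher and 16.9% lower. In Th2-4th cells 14 were higher and 2 lower, where 18.7% of all genes were higher and 21.6% lower. Most of the 39 genes had signals well above the array median, and among genes with a signal above that median 10.7% were higher and 16.7% lower in Th2-1st cells, and 14.6% higher and 21.0% lower in Th2-4th cells. The median log2 ratio of the group in Th2-1st cells was 0.63, and 0.58 in Th2-4th cells, against -0.01 and -0.10 over all genes. The log2 ratio was above 0 in 33 genes in Th2-1st and in 30 in Th2-4th cells.

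**Figure D1:**
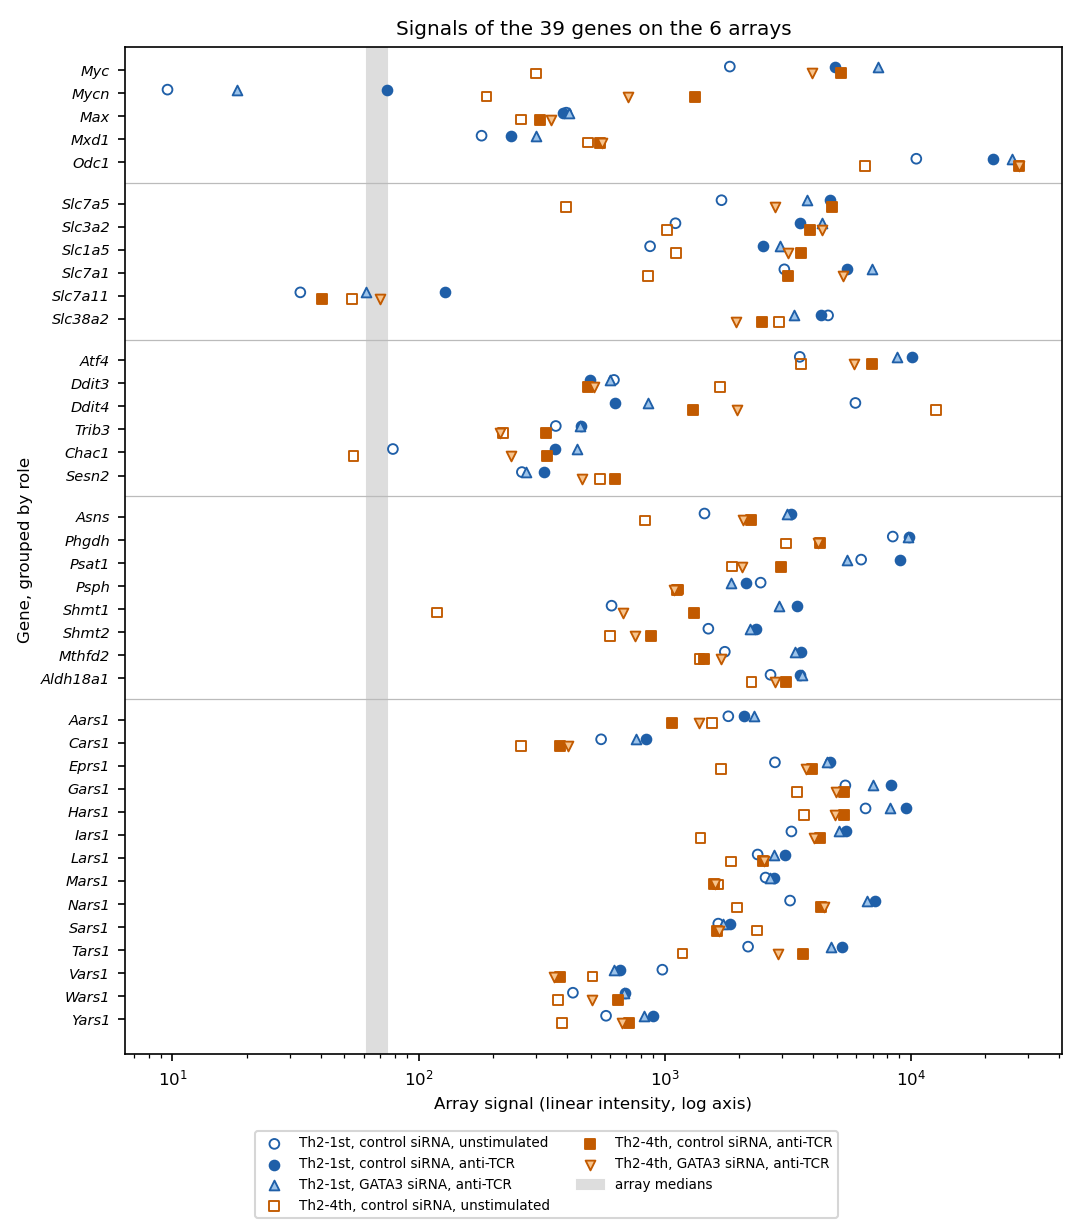
Array signal (horizontal axis, linear intensity on a log axis) of the 39 measured genes (vertical axis, grouped by role), 1 symbol per array. Circles and upward triangles are Th2-1st cells and squares and downward triangles Th2-4th cells. Open symbols mark control siRNA cells without stimulation, dark filled symbols are control siRNA cells after anti-TCR and light filled triangles are GATA3 siRNA cells after anti-TCR. The grey band spans the array medians, 61.8 to 74.2, and for 24 of the 39 genes the lowest symbol is the open square of unstimulated Th2-4th cells.

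Myc was higher after stimulation in both cultures. It read 1841 without and 4939 with anti-TCR in Th2-1st cells, and 299 without and 5218 with anti-TCR in Th2-4th cells. The stimulated arrays thus lay close together while the unstimulated arrays lay 6.15-fold apart. The log2 response was 1.42 (spread 0.63) in Th2-1st and 4.12 (spread 0.95) in Th2-4th cells. Mycn, the MYC family member of neural and other progenitor cells, read 9.55 and 74.7 in Th2-1st cells against 189 and 1335 in Th2-4th cells. Its log2 response was 2.97 and 2.82, but its unstimulated Th2-1st signal lay below the array median, and once signals were raised to that median the Th2-1st response was 0.26. The mean over its 3 probe sets gave 0.99 in Th2-4th cells, short of 2-fold, and 1 of its other probe sets read 30.3 without and 14.2 with anti-TCR there. Max, the partner of MYC, read 399 and 386 in Th2-1st against 261 and 311 in Th2-4th cells. Mxd1, a repressor that competes with MYC for MAX, had log2 ratios of 0.40 and 0.17. Neither Max nor Mxd1 passed 2-fold. Odc1, ornithine decarboxylase at the head of polyamine synthesis and a classic MYC target, read 10543 and 21652 in Th2-1st cells against 6534 and 27664 in Th2-4th cells. Its log2 response of 1.04 in Th2-1st cells was 0.90 under quantile normalization, and the response in Th2-4th cells was 2.08. A second bright probe set of Odc1 read 7068 and 20585 in Th2-1st cells against 5190 and 25248 in Th2-4th cells. Its log2 responses of 1.54 and 2.28 passed 2-fold in both cultures. A dimmer probe set of Odc1 read 399 and 1952 in Th2-1st cells against 391 and 1966 in Th2-4th cells.

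Among the 6 transporter genes, 4 were higher in each culture and none was lower, with median log2 ratios of 1.49 and 1.78. Slc7a5 and Slc3a2 encode the light and heavy chains of the large neutral amino acid transporter LAT1. Slc7a5 read 1703 and 4713 in Th2-1st cells against 397 and 4775 in Th2-4th cells, log2 responses of 1.47 (spread 0.63) and 3.59 (spread 0.95). As with Myc, the stimulated signals of Slc7a5 were alike in the cultures and the unstimulated signal was lower in Th2-4th cells. Slc3a2 read 1107 and 3542 in Th2-1st against 1021 and 3904 in Th2-4th cells, so that both of its signals were alike in the cultures. Slc1a5, the glutamine transporter ASCT2, read 873 and 2504 in Th2-1st against 1114 and 3572 in Th2-4th cells. Slc7a1, the arginine and lysine transporter CAT-1, read 3067 and 5521 in Th2-1st cells, a log2 ratio of 0.85, and 859 and 3163 in Th2-4th cells, a log2 ratio of 1.88. Slc7a11, the cystine transporter xCT, read 33.1 and 128 in Th2-1st cells against 53.7 and 40.3 in Th2-4th cells. Its 1.95 in Th2-1st cells was 1.03 when raised to the array median, and its Th2-4th signals were both below that median. Slc38a2, a transporter of neutral amino acids that ATF4 is known to raise on starvation, had log2 ratios of -0.10 and -0.23.

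Of Atf4 and the 5 stress genes, 2 were higher and 1 lower in Th2-1st cells, and 1 was higher and 2 lower in Th2-4th cells. Atf4 itself read 3543 and 10126 in Th2-1st cells, a log2 ratio of 1.52 (spread 0.45), and 3583 and 6989 in Th2-4th cells, a log2 ratio of 0.96 (spread 0.64) just short of 2-fold. A second bright probe set of Atf4 read 3247 and 6973 in Th2-1st against 2133 and 6669 in Th2-4th cells. Its log2 ratios of 1.10 and 1.64 passed 2-fold in both cultures, as did the mean over probe sets. Chac1, a glutathione-degrading enzyme and ATF4 target, read 78.7 and 357 in Th2-1st against 54.4 and 333 in Th2-4th cells, which is 4.54-fold and 6.11-fold. Ddit4, the mTORC1 inhibitor REDD1, went the other way. It read 5963 without and 630.3 with anti-TCR in Th2-1st cells against 12673 and 1309 in Th2-4th cells, which is 9.46-fold and 9.68-fold lower. Ddit4 was the only 1 of the 39 genes lower in both cultures. Ddit3, the stress transcription factor CHOP, read 623 and 497 in Th2-1st cells against 1684 and 489 in Th2-4th cells, a log2 ratio of -1.78 (spread 0.95) in the latter. Trib3, a pseudokinase that restrains ATF4, had log2 ratios of 0.34 and 0.58, and Sesn2, a leucine sensor upstream of mTORC1, of 0.30 and 0.21. Chac1 was thus higher in both cultures and Atf4 in Th2-1st cells by both bright probe sets and in Th2-4th cells by 1 of them, while Ddit3, Trib3 and Sesn2, also known targets of ATF4, were lower or within 2-fold.

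Among the 8 measured synthesis genes, 3 were higher in Th2-1st cells, 2 were in Th2-4th cells, and no gene was lower. Shmt1, the cytosolic serine hydroxymethyltransferase that moves a carbon from serine to folate, read 609 and 3459 in Th2-1st against 119 and 1316 in Th2-4th cells. Its log2 response was 2.51 (spread 0.73) and 3.47 (spread 1.02), and its 3 other probe sets were also higher in Th2-1st cells. Of these 3, 1 did not pass 2-fold in Th2-4th cells, with 468 and 853. Asns, asparagine synthetase, read 1453 and 3258 in Th2-1st against 833 and 2251 in Th2-4th cells. Its log2 responses of 1.17 and 1.43 rested on a probe set with the suffix _x_at. By its other probe set they were 0.95 and 0.99. Mthfd2, a mitochondrial folate enzyme, read 1757 and 3572 in Th2-1st cells against 1385 and 1448 in Th2-4th cells, where it did not pass 2-fold. The 3 enzymes of serine synthesis stayed within 2-fold in both cultures. Phgdh, which commits 3-phosphoglycerate to serine, read 8458 and 9854 in Th2-1st against 3124 and 4267 in Th2-4th cells. Psat1, the aminotransferase of the next step, had log2 ratios of 0.52 and 0.66, and Psph, the phosphatase of the last step, of -0.20 and -0.01. Shmt2, the mitochondrial hydroxymethyltransferase, stood at 0.64 and 0.56, and Aldh18a1, which starts proline synthesis, at 0.40 and 0.47.

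The 14 cytosolic tRNA synthetases, which load each tRNA with its amino acid, had a median log2 ratio of 0.61 in Th2-1st cells, close to 0.59 in Th2-4th cells. In Th2-1st cells 13 of the 14 were above 0 and 2 were past 2-fold, and in Th2-4th cells 10 were above 0 and 4 were past 2-fold. Tars1, for threonine, read 2184 and 5283 in Th2-1st against 1182 and 3663 in Th2-4th cells. Nars1, for asparagine, read 3235 and 7136 in Th2-1st against 1965 and 4325 in Th2-4th cells, and its ratio of 1.14 in each culture was 0.95 and 0.93 as a mean over its 2 probe sets. Iars1, for isoleucine, had log2 ratios of 0.73 and 1.62, and Eprs1, for glutamate and proline, of 0.74 and 1.23. Wars1, for tryptophan, had ratios of 0.71 and 0.81, and Yars1, for tyrosine, of 0.63 and 0.91. At the other end, Vars1, for valine, read 979 and 658 in Th2-1st against 509 and 377 in Th2-4th cells. Aars1, for alanine, and Sars1, for serine, had Th2-1st ratios of 0.22 and 0.16 and both stood at -0.54 in Th2-4th cells. Mars1, for methionine, was near 0 in both, at 0.11 and -0.05. The remaining synthetases, Cars1, Gars1, Hars1 and Lars1, lay between 0.36 and 0.64 in the 2 cultures.

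The 9 measured genes with the amino acid response element had a median log2 response of 0.73 in Th2-1st cells, with 0.91 in Th2-4th cells. The 21 measured genes with a promoter that lacked these letters had medians of 0.40 and 0.45. Genes without a promoter entry, Myc, Slc7a5, Slc1a5 and Nars1 among them, are in neither set. The difference between the sets was not tested. In each culture 4 of the 9 genes with the element and 6 of the 21 without it were over 2-fold higher. Asns, Chac1 and Tars1, printed above, were higher in both cultures, Iars1 passed 2-fold in Th2-4th cells and Slc7a11 in Th2-1st cells, while Aars1, which holds the element in 2 places and an E-box, passed 2-fold in neither.

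The responses in the 2 cultures share no array. Across the 39 genes their Pearson correlation was 0.81, and across 10429 genes above the array median in both pairs it was 0.83. Of the 39 genes, 11 were higher in both cultures, which is 28.2%, against 7.39% of those 10429 genes. They were Myc, Mycn, Odc1, Slc7a5, Slc3a2, Slc1a5, Chac1, Shmt1, Asns, Tars1 and Nars1. The log2 response in Th2-4th cells exceeded that in Th2-1st cells by over 1 in 4 genes, by 2.70 in Myc, 2.12 in Slc7a5, 1.04 in Odc1 and 1.03 in Slc7a1. In the opposite direction, the Th2-4th minus the Th2-1st response was -2.36 in Slc7a11 and -1.46 in Ddit3. These counts were near the background, at 10.3% of the 39 genes exceeding and 5.13% falling short by over 1, against 7.17% and 6.52% of the 10429 genes and 15.3% and 17.6% of all genes. The size of the gap also depended on the probe set. In the order Th2-1st, Th2-4th, the second bright probe set of Slc7a1 responded by 1.03 and 1.67. That of Odc1 responded by 1.54 and 2.28, and the dimmer one of Odc1 by 2.29 and 2.33. With 1 array per condition the difference between the cultures was not tested.

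**Figure D2:**
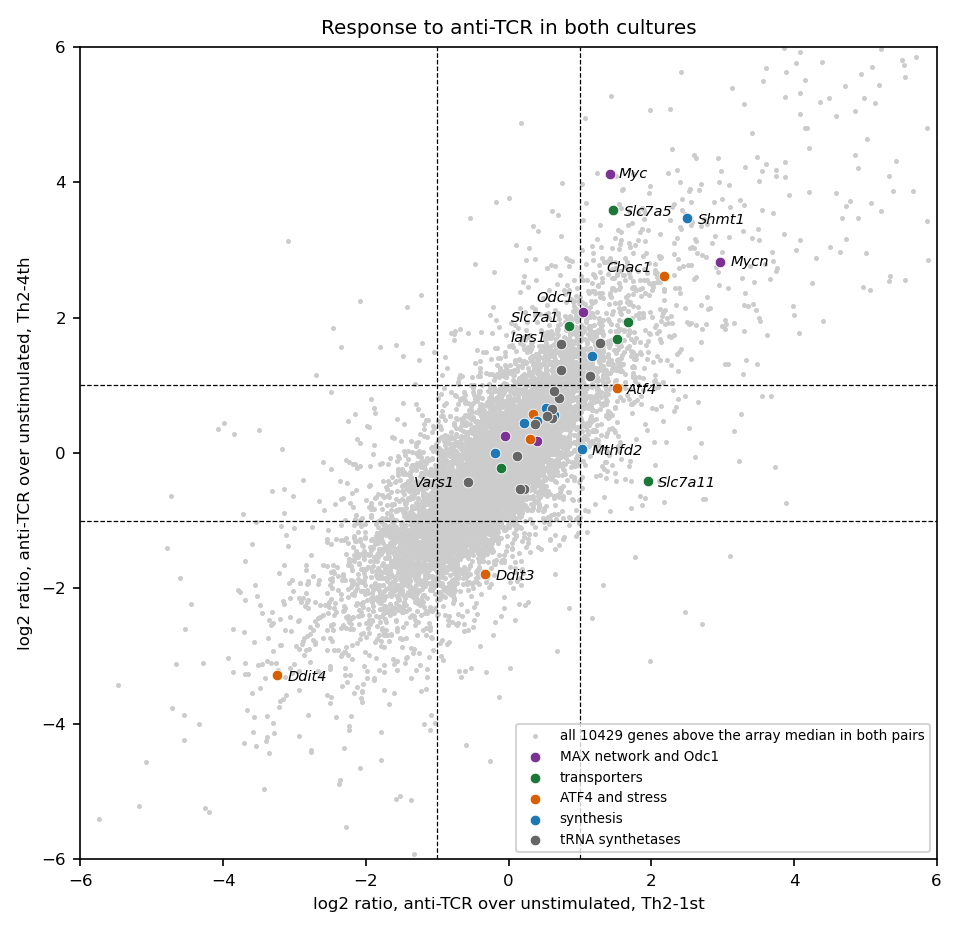
Log2 ratio of anti-TCR to unstimulated control siRNA cells in Th2-1st (horizontal axis) and Th2-4th cells (vertical axis), with the 39 genes coloured by role and dashed lines at 2-fold. Grey points are the 10429 genes above the array median in both pairs, of which 60 lie beyond the axes. Myc and Slc7a5 stand above the bulk of the grey points, Ddit4 lies in the lower left corner region past 2-fold in both cultures, and Slc7a11 lies to the right and below.

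In Th2-4th against Th2-1st cells without stimulation, 10 of the 39 genes, Myc and 5 synthesis genes among them, were below 0.5-fold and 5 were above 2-fold. Of all genes 12.3% were lower and 19.5% higher in this pair, and of those above the array median 9.22% and 11.9%. The median log2 ratio was -0.66, against 0.17 over all genes, and 30 of the 39 genes were below 0. After anti-TCR stimulation 7 were lower and 3 higher, where 12.7% of all genes were lower and 17.2% higher, and 7.93% and 11.4% of those above the array median. The median after stimulation was -0.47, against 0.10 over all genes. Centring of the arrays moved the median of all genes by -0.25 and -0.24 in these pairs, to -0.07 and -0.14, and it gave 14 genes lower and 1 higher after stimulation. For 24 of the 39 genes (61.5%) the lowest of the 6 signals was that of unstimulated Th2-4th cells, which held the lowest signal of 20.3% of 12162 genes above the median on some array. For 20 genes (51.3%) the highest signal was that of stimulated Th2-1st control cells, against 11.7% of those genes. These pairs use the same arrays as the responses to anti-TCR and are no separate measurement of them.

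Myc had the lowest ratio of the group without stimulation, at a log2 ratio of Th2-4th to Th2-1st of -2.62 (spread 0.63), and was level at 0.08 after it. Slc7a5 went the same way, at -2.10 and 0.02, and Slc7a1 stood at -1.84 and -0.80. The second bright probe set of Slc7a1 gave -0.90 and -0.26, short of 2-fold in both states, and its value with anti-TCR was -0.0027 as a mean over probe sets and -1.04 after centring. Mycn was on the opposite side in both states, with signals of 9.55 and 189 without and 74.7 and 1335 with anti-TCR. Its unstimulated Th2-1st signal lay below the array median, and the ratio of 4.30 in that state was 1.59 once signals were raised to the median. The ratios of 4.30 and 4.16 were 2.69 and 0.86 as a mean over its probe sets, of which 1 read 86.0 in Th2-1st and 14.2 in Th2-4th stimulated cells. Mxd1 was also higher in Th2-4th cells, with 180.4 and 488 without and 238 and 549 with anti-TCR, though its ratio of 1.20 after stimulation was 0.97 after centring. Among the stress genes, Ddit3, Ddit4 and Sesn2 were higher in unstimulated Th2-4th cells, at 1.44, 1.09 and 1.05. After centring Ddit4 stood at 0.84 and Sesn2 at 0.81, and the mean over probe sets gave Ddit3 0.99. Atf4 was level without stimulation, at 3543 and 3583.

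Among the 8 synthesis genes, 5 were below 0.5-fold in Th2-4th against Th2-1st cells in each state. All 8 had ratios below 0 in both states, with medians of -1.22 without and -1.25 with anti-TCR. The 3 enzymes of serine synthesis stood together. Phgdh was 2.71-fold lower without and 2.31-fold lower with anti-TCR, and Psat1 3.35-fold and 3.03-fold lower. Psph read 2457 in Th2-1st cells but 1133 in Th2-4th cells without stimulation, 2.17-fold lower, and 2144 and 1128 with it, 1.90-fold lower. Shmt1 had log2 ratios of -2.36 and -1.39 by its brightest probe set. Its other probe sets gave -3.43, -1.99 and 0.03 without stimulation, so the last of these was level between the cultures. With anti-TCR the same probe sets gave -1.72, -1.27 and -1.11, all past 2-fold. Shmt2 had ratios of -1.33 and -1.41 by its brightest probe set, and of -0.45 without stimulation as a mean over 4 probe sets. Mthfd2 was level within its spread without stimulation, at -0.34 (spread 0.66), and 2.47-fold lower with it. Asns, at -0.80 and -0.53, and Aldh18a1, at -0.26 and -0.19, did not pass 2-fold.

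Of the 14 synthetases, 13 were below 0 without stimulation and all 14 with it, with medians of -0.69 and -0.58. Iars1, at -1.23, and Cars1, for cysteine, at -1.08, passed 2-fold without stimulation, and Cars1 did so with it, at -1.17. Without probe sets of the suffixes _s_at, _x_at and _a_at Iars1 stood at -0.99. The mean over probe sets gave Cars1 -0.76 and -0.47, where its other probe set was below the array median. Sars1 was the 1 synthetase above 0 without stimulation, reading 1652 in Th2-1st cells but 2382 in Th2-4th cells. Among the transporters, Slc3a2 and Slc1a5 were within 2-fold in both states, at -0.12 and 0.35 without and 0.14 and 0.51 with anti-TCR.

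**Figure D3:**
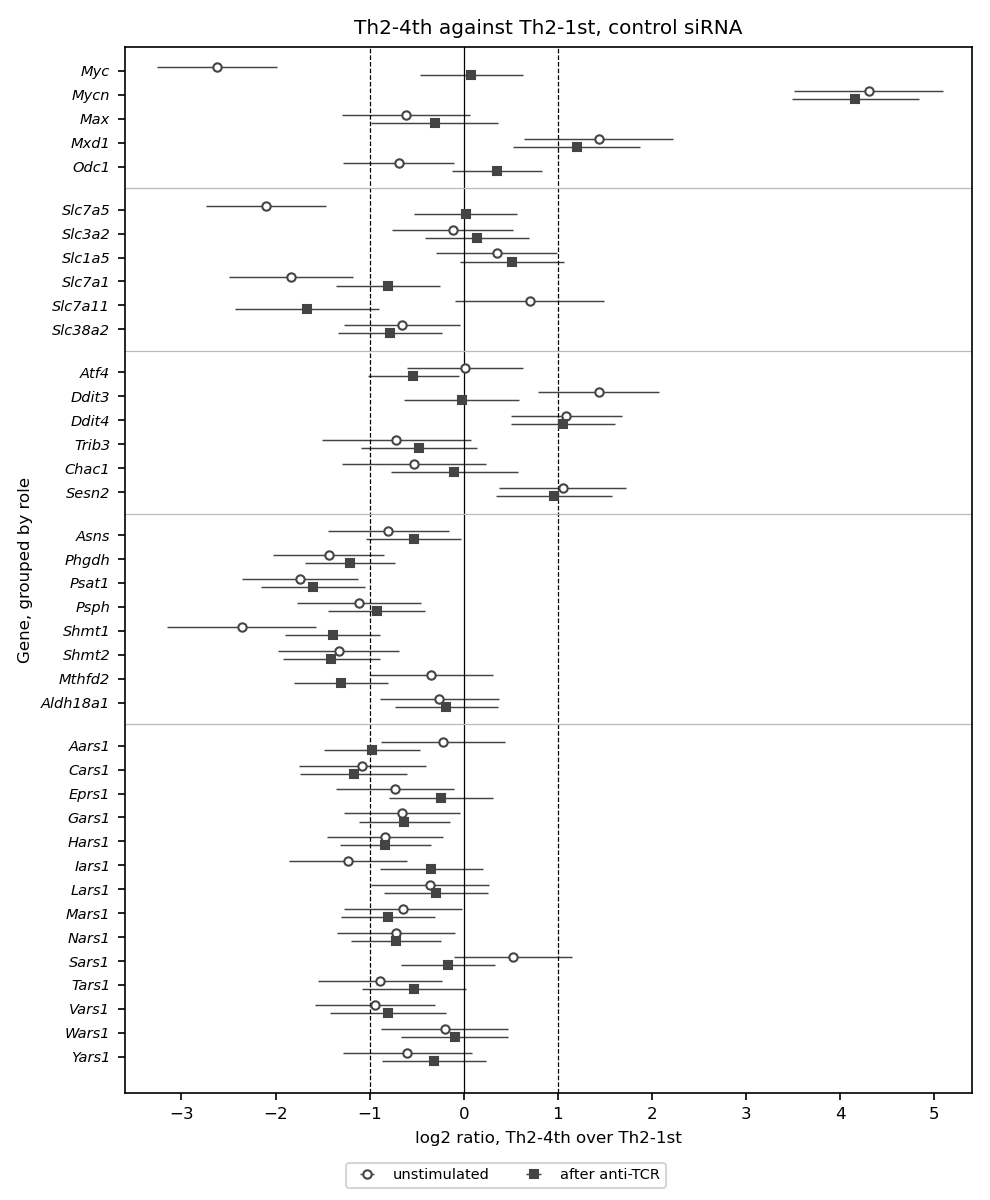
Log2 ratio of Th2-4th to Th2-1st control siRNA cells (horizontal axis) for the 39 genes (vertical axis, grouped by role), without stimulation (open circles) and after anti-TCR (filled squares). Bars are the spread of the ratio among genes of like signal on either side, not a replicate error, and dashed lines mark 2-fold. Myc, Slc7a5 and Slc7a1 lie left of the line without stimulation and closer to 0 with it, while Phgdh, Psat1, Shmt1 and Shmt2 lie left of it in both states.

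With GATA3 siRNA, no gene of the group was over 2-fold higher in either culture. In Th2-1st cells 2 of 39 lay below 0.5-fold, where 7.49% of all genes were lower and 13.3% higher. None did in Th2-4th cells, where 10.6% were lower and 10.6% higher. Of genes above the array median, 4.41% were higher and 2.26% lower in Th2-1st cells, and 3.0% higher and 3.49% lower in Th2-4th cells. The summed markers of CD8 T and NK cells read 1083 under control siRNA and 1449 under GATA3 siRNA in Th2-1st cells, and those of mast cells and basophils 325 and 163. In Th2-4th cells these sums were 2654 and 3393, and 1230.2 and 321, and their part in the ratios was not tested. The median log2 ratio of GATA3 to control siRNA was -0.08 in each culture, against 0.05 and 0.01 over all genes, with 27 genes below 0 in the Th2-1st pair, 25 in the Th2-4th pair. Centring gave -0.25 in Th2-1st cells, where it moved the median of all genes by -0.17.

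The 2 genes lower in Th2-1st cells both had low signals. Mycn read 74.7 under control and 18.2 under GATA3 siRNA, and its log2 ratio of -2.03 was -0.10 once signals were raised to the array median. Slc7a11 read 128 and 61.4, a log2 ratio of -1.06 that was -0.88 with signals raised and -0.41 as a mean over its probe sets. In Th2-4th cells Mycn read 1335 and 713, a log2 ratio of -0.90 (spread 0.28), and 0.30 as a mean over its probe sets. Slc7a11 read 40.3 and 70.0 there, below the array median on both arrays.

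Myc itself read 4939 under control and 7371 under GATA3 siRNA in Th2-1st cells, a log2 ratio of 0.58 against a spread of 0.12. In Th2-4th cells it read 5218 and 3955, a log2 ratio of -0.40 against a spread of 0.22. The ratios lay on opposite sides of 0 and neither reached 2-fold. Slc7a5 was below 0 in both cultures, at -0.31 (spread 0.16) and -0.76 (spread 0.22), with 4775 and 2814 in Th2-4th cells. Slc7a1 was above 0 in both, at 0.34 (spread 0.12) and 0.75 (spread 0.22), with 3163 and 5327 in Th2-4th cells. The second bright probe set of Slc7a1 gave 0.36 and 0.22, with 2044 and 2387 in Th2-4th cells. Slc38a2 stood at -0.36 in each culture. Ddit4 read 630.3 and 855 in Th2-1st against 1309 and 1973 in Th2-4th cells, log2 ratios of 0.44 and 0.59 (spreads 0.24 and 0.26). Atf4 stood at -0.21 and -0.25, with spreads of 0.12 and 0.20, but at 0.04 and -0.05 by its second bright probe set. Chac1 stood at 0.30 and -0.48.

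Among the synthesis genes, Psat1 was below 0 in both cultures, with 9013 and 5524 in Th2-1st against 2971 and 2073 in Th2-4th cells, log2 ratios of -0.71 (spread 0.12) and -0.52 (spread 0.24). Shmt1 read 3459 and 2924 in Th2-1st against 1316 and 679 in Th2-4th cells, where its log2 ratio of -0.95 (spread 0.28) was the lowest of the group. The other probe sets of Shmt1 gave only -0.29, -0.30 and -0.45 in Th2-4th cells. Phgdh read 9854 and 9776 in Th2-1st against 4267 and 4190 in Th2-4th cells. Asns stood at -0.06 and -0.11. The synthetases had medians of -0.10 and -0.08, and those of Th2-1st cells ran from -0.24 in Gars1 to 0.13 in Aars1, with 13 of 14 below 0. In Th2-4th cells they ran from -0.35 in Wars1 to 0.35 in Aars1. The knockdown ratios of the 2 cultures share no array, and their Pearson correlation was 0.33 across the 39 genes and 0.25 across 10291 genes above the array median in both pairs. Both cultures received the same siRNAs, so dependence on GATA3 and any other effect of that siRNA cannot be told apart.

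**Figure D4:**
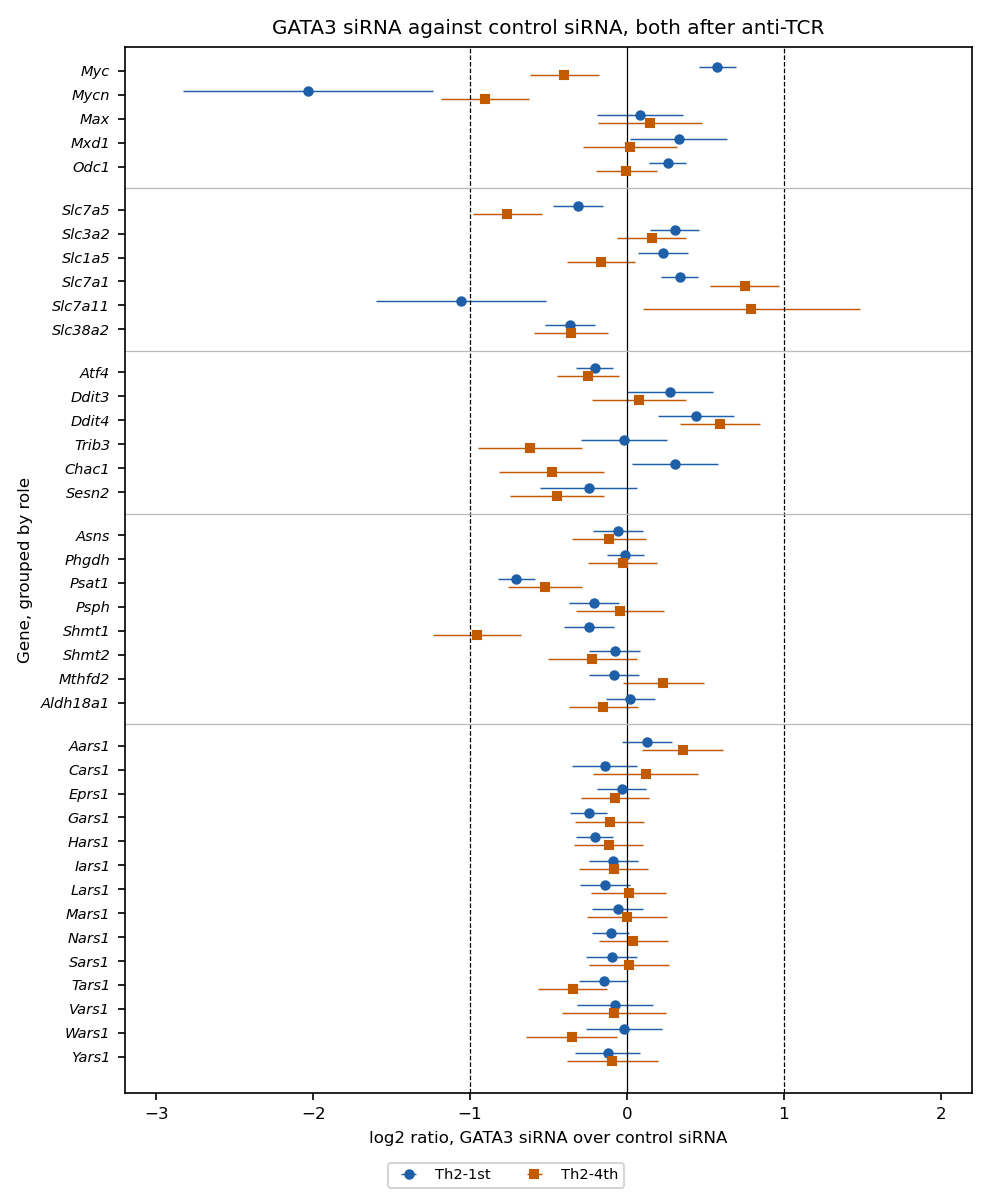
Log2 ratio of GATA3 siRNA to control siRNA, both after anti-TCR (horizontal axis), for the 39 genes (vertical axis, grouped by role) in Th2-1st (circles) and Th2-4th cells (squares). Bars are the spread of the ratio among genes of like signal on either side, not a replicate error, and dashed lines mark 2-fold. Most symbols lie within the lines, only Mycn and Slc7a11 of Th2-1st cells lie left of them, and Myc has its circle right and its square left of 0.

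Some genes had further probe sets above the array median. Over 40 other probe sets of 24 genes, the log2 response to anti-TCR in Th2-1st cells differed by a median of 0.25, and 10 of the 12 that belonged to called genes were past 2-fold in the same direction. In Th2-4th cells the median difference was 0.27, and 12 of 15 were. Between the cultures the median difference was 0.23 without stimulation, where 9 of 15 were, and 0.27 with it, where 11 of 14 were and the largest difference, 6.76, was that of Mycn.

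Other genes of the same pathways were read from lists of their names. As a background for the anti-TCR counts below, the Th2-1st pair had 17.5% of all genes higher and 16.9% lower. For the Th2-4th pair these shares were 18.7% and 21.6%. Among genes above the array median, the higher shares were 10.7% (Th2-1st) and 14.6% (Th2-4th), the lower shares 16.7% and 21.0%. Whether any list departed from this background was not tested. Of 10 further MAX network genes, none was higher and 4 were lower after anti-TCR in Th2-1st cells, and 1 was higher and 3 lower in Th2-4th cells. Mxd4, a repressor of the Mxd1 family, read 1380.1 and 68.4 in Th2-1st cells against 5370 and 336 in Th2-4th cells, which is 20.2-fold and 16.0-fold lower. Mxi1, another repressor of the family, stood at -1.93 in Th2-4th cells, and Mxd3 at -2.09 and -1.65. Mxd4 was also higher in Th2-4th than in Th2-1st cells, 3.89-fold without and 4.91-fold with anti-TCR. Of 8 further polyamine genes, 2 were higher and none lower in Th2-1st cells, and 1 was higher and 1 lower in Th2-4th cells. Srm, the spermidine synthase downstream of Odc1, read 1979 and 10186 in Th2-1st against 376 and 6811 in Th2-4th cells, so that its unstimulated signal was 5.27-fold lower in the latter.

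Of 19 further genes of eIF2 alpha and ATF4 signalling, 5 were higher and 2 lower after anti-TCR in Th2-1st cells, and 7 higher and 2 lower in Th2-4th cells. Of the 2 lower in Th2-1st cells, 1 had a signal above the array median. Atf3, a stress and activation factor, read 124 and 1444 in Th2-1st against 166 and 2986 in Th2-4th cells. Cth, which makes cysteine from cystathionine, read 7.93 and 2630 in Th2-1st against 2.29 and 336 in Th2-4th cells. Its log2 responses were 5.39 and 2.18 when the unstimulated signals were raised to the array median. Of 15 further transporters, 3 were higher and 1 lower after anti-TCR in Th2-1st cells, and 3 higher and none lower in Th2-4th cells. Among those of Th2-4th cells was Slc38a1, a glutamine transporter, with 3070 and 8668. Of the 3 higher in Th2-1st cells, 2 had a signal above the array median. Slc1a4, the neutral amino acid transporter ASCT1, read 45.0 and 212 in Th2-1st against 7.68 and 135 in Th2-4th cells. Its log2 responses of 2.24 and 4.13 were 1.76 and 0.86 when the unstimulated signals, below the array median in both cultures, were raised to it, so that the Th2-4th response no longer passed 2-fold.

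Of 18 further genes of amino acid and folate metabolism, 4 were higher and 1 lower in Th2-1st cells, and 4 higher and 3 lower in Th2-4th cells. A signal above the array median was found for 3 of the 4 higher in Th2-1st and 2 of the 3 lower in Th2-4th cells. Bcat1, the cytosolic branched-chain aminotransferase, read 308 and 4480 in Th2-1st against 57.1 and 4531 in Th2-4th cells, with the pattern of Myc and Slc7a5 across the 4 control arrays. Glul, glutamine synthetase, read 6539 and 1143 in Th2-1st against 5981 and 1301 in Th2-4th cells, which is 5.72-fold lower in the former. Of 8 further cytosolic synthetases and cofactors, 1 was higher in Th2-1st cells, 5 were in Th2-4th cells, and no gene was lower, led by Eef1e1, a cofactor of the synthetase complex, at 2.29 and 3.63. Of 16 mitochondrial synthetases, none passed 2-fold in Th2-1st cells, and 3 were higher and 2 lower in Th2-4th cells. Of 18 genes of amino acid sensing by mTORC1, none was higher and 5 were lower in Th2-1st cells, and 2 were higher and 5 lower in Th2-4th cells. Sesn1, a relative of Sesn2, read 1274 and 379 in Th2-1st against 3709 and 328 in Th2-4th cells, and Sesn3, the third of the family, stood at -2.18 and -2.61.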

How the data were processed

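RNA was measured on 6 Affymetrix mouse genome arrays, 1 per condition. The authors deposited 1 linear signal intensity per probe set, made with the Affymetrix Expression Console per the labels. Which algorithm or version it ran is not given in the sources used here. Trimmed by 2% of probe sets at each end, the deposited intensity values average 500.0 on each array, so the arrays had been scaled. No detection call was used, and the number of arrays limits the precision.

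The platform annotation gave exactly 1 gene for 34958 of 45101 probe sets, and several or none for the others. Of the former, 34754 matched RefSeq by gene ID and took its symbol. After this, 13 of the 39 genes, all tRNA synthetases, still stood under an older alias such as Aars. They were renamed as in the list, such as Aars1. The brightest probe set by mean log2 signal stood for each gene. Ratios were formed for 6 pairs of arrays, with thresholds of 2 and 0.5 after the study's methods. The spread is the median absolute deviation times 1.4826, taken on log2 ratios within 20 bins of mean log2 signal. The steps were tested on simulated data. Every gene of the group is reported, and of the other pathway lists up to 3 genes per list and pair past 2-fold with the largest ratio were eligible to be named, with a signal above the array median. The genes and lists were chosen with earlier results of these data known. Alternatives were the mean over probe sets, leaving out probe sets with the suffixes _s_at, _x_at and _a_at, quantile normalization, centring on the array median, raising low signals to it, keeping genes above it, and a 3.16-fold threshold. Python 3.11.15, numpy 2.4.6, pandas 2.3.3, scipy 1.17.1 and matplotlib 3.10.9 were used.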

Additional observations from a re-analysis of the deposited data

How the results depend on the processing

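Of 1128 values of single genes under the alternatives, 1078 moved by less than the spread among genes of like signal, 50 moved by more and 0 changed sign among called genes, while 23 calls of 2-fold ended. Of 120 counts and medians of the group, 105 stayed within limits of their own. A count could change by up to 1.5 times, and a change from or to 0 was taken as a move. A median could move by less than the median spread of the 39 genes. At a 3.16-fold threshold, the genes higher after anti-TCR numbered 5 in Th2-1st but 9 in Th2-4th cells, 1 lay lower under GATA3 siRNA in Th2-1st cells, and Th2-4th against Th2-1st cells gave 5 lower and 1 higher without stimulation and 1 lower and 1 higher with it. The genes lower in Th2-1st cells with GATA3 siRNA, 2 as reported, were 1 by the mean over probe sets and 0 once signals under the array median were raised to it, and the median of the group there was -0.25 after centring. Without probe sets of the suffixes _s_at, _x_at and _a_at, 32 genes kept a probe set. In unstimulated Th2-4th against Th2-1st cells 6 of these were lower, and 3 genes were higher after centring. With anti-TCR, 1 gene was higher by the mean over probe sets, and centring gave 1 higher and 14 lower. Apart from fewer genes and a stricter threshold, the cause of these moves was not tested. No paired analysis was possible because each condition had 1 array. Signals near or below the array median limit Mycn, Slc7a11 and Chac1, and no detection call was used to set a lower limit.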
